A study of Mus musculus with 8 samples.

Results

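The genes described here encode mouse translation initiation factors (symbols beginning with Eif1 to Eif6) and elongation factors (Eef1 and Eef2), together with the kinases, binding proteins and methyltransferases that share these symbols. The annotation of the array held 58 such symbols. Eif2s3x, Eif2s3y, Eif2ak2, Eif4ebp1 and Eef1e1 were left out by the rule, and 53 of the 16559 annotated genes remained, read by 89 probes. Membership rested on the symbol alone and used no measured value.

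RNA levels were measured on Illumina MouseRef-8 v2 bead arrays in mice lacking Dnmt2 (Trdmt1), Nsun2 or both, which are enzymes that methylate cytosines in transfer RNA. The mouse embryonic fibroblasts (MEFs) came from embryos of day 13.5, carried a plasmid for the SV40 large-T antigen, which made them immortal, and were used at passage 9. The livers came from mice aged 2 months. All groups carried the strain label CBA/C57BL6j x B6;129. Each sample type was represented by wild type, Dnmt2-/-, Nsun2-/- and double knockout, with 1 array for each of the 8 groups. A MEF group was therefore 1 line and a liver group 1 RNA sample, and the sources used here give neither the number of embryos behind a line nor the number of animals behind a liver sample. All 4 MEF lines shared the large-T antigen, their wild type included.

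Initiation factors bring the small ribosomal subunit, the initiator transfer RNA and the capped end of a messenger RNA together at the start codon. eIF2 carries the initiator transfer RNA, eIF2B reloads eIF2 with GTP, eIF3 holds the complex on the small subunit, and the eIF4 factors bind the cap and unwind the leader. Elongation factors then deliver aminoacylated transfer RNA (eEF1A, recharged by the eEF1B subunits) and move the ribosome along (eEF2). Growing cells are known for high output of this machinery, and 4E-binding proteins, eIF2 kinases and the eEF2 kinase slow it.

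Of the 53 members, 44 were detected (detection p under 0.01) on at least 2 arrays and were tested, 41 of them on all 8. Eef1a1 was detected on 5 arrays, Eif4e on 7 and Eif4ebp3 on 4. Detected on 1 array only were Eef1a2, Eif1ax and Eif3e. The probes of Eef1akmt2, Eif2ak4, Eif3m, Eif4e1b, Eif5a2 and Eif5b were detected on none, and no level is given for them. Each array detected 42 to 45 members. The lowest detected log2 signal was 4.39 to 4.40 in MEFs and 4.48 to 4.53 in livers.

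The arrays correlated at 0.978 to 0.989 among MEFs and 0.990 to 0.993 among livers, and the double knockout MEF array stood at 0.978 to 0.979 to the other MEFs. The Nsun2 probe was not detected on any Nsun2-/- or double knockout array, nor on the liver array labelled Dnmt2-/- (4.41, against 5.35 in wild-type liver), so that array goes by its label only. The Trdmt1 probe was detected on the Dnmt2-/- (5.09) and double knockout MEF arrays (4.64) and on no other, wild-type MEFs (4.51) included. In livers, undetected throughout, it read 4.31, 4.87, 4.15 and 4.64 in wild type, the array labelled Dnmt2-/-, Nsun2-/- and double knockout, so its signal was higher where the labels lack Dnmt2. No source used here places this probe inside or outside the deletion, so it checks no label, and every Dnmt2 direction here goes by the labels. Y-linked Kdm5d was not detected in Nsun2-/- and double knockout MEFs, so Nsun2 loss and sex-linked differences cannot be told apart there. It was also undetected in the Nsun2-/- liver (4.40, against 5.27 to 6.05 in the other livers), where Y-linked Eif2s3y was detected (8.76), and Xist was detected in the knockout livers (4.85 to 5.48) and not in the wild-type liver.

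MEFs and livers were compared to ask how the translation machinery differed between the sample types that the knockouts were studied in. Most cytosolic factors had more RNA in MEFs: 26 of 44 members were higher and 7 lower (limma, Benjamini-Hochberg adjusted p under 0.05, over 10491 genes and 4 against 4 arrays). Over all genes tested, 38.7% were called higher and 28.6% lower. At an unadjusted p under 0.05 there were 34 members and 70.3% of all genes. The median member stood 0.62 higher in MEFs on the log2 scale, against 0.14 for all genes tested. With arrays scaled to a common median instead of quantile-normalized, the median of all genes moved by 0.37, to 0.51. The members' calls then became 36 higher and 3 lower, a split of 92.3% higher against 78.8%. The shares of all genes given above belong to quantile normalization, and none is given for median scaling. The 36 and 3 therefore have no share of all genes beside them. No member called higher changed sign under any scaling that was run, and of those called lower Eif2b2, Eif2b4 and Eif2ak1 did so under median scaling. Relative to the median of all genes, 31 members lay above and 13 below, or 35 and 9 under median scaling.

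The 4 MEF values and the 4 liver values did not overlap for 31 of the 44 members (70.5%), 24 of them higher in MEFs and 7 in livers. The same held for 62.5% of all genes tested. The spread in this fit is the departure of the arrays from an additive layout of sample type and genotype, not a spread between replicate animals or cultures.

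**Figure D1:**
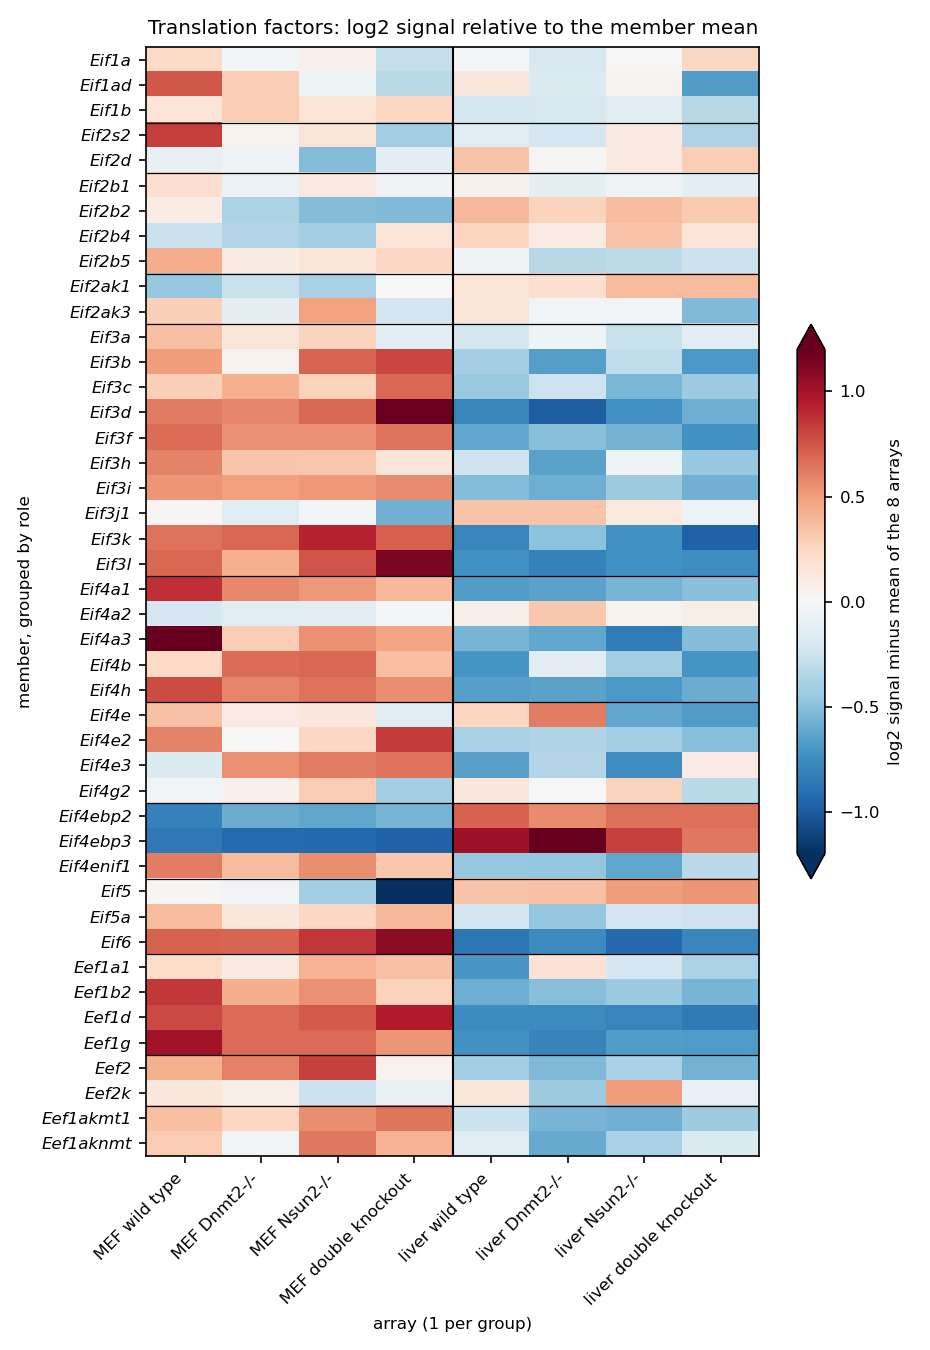
Log2 signal of the 44 tested members (rows, grouped by role) on the 8 arrays (columns), shown as the difference from each member's mean over the 8 arrays, with colours limited to 1.2 in either direction. Most eIF3, eIF4A and eEF1 rows change colour between the 4 MEF and the 4 liver columns, while Eif3a, Eif3j1 and Eef1a1 are mixed within a sample type. Differences between genotypes are mostly paler, though not for Eif5 in double knockout MEFs.

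The sample types differed in much else. Among markers of cycling cells, 6 of 6 tested genes were higher in MEFs, with list medians of 9.74 to 9.96 against 4.38 to 5.07 in livers. Fibroblast markers were higher for 8 of 8 tested, at 10.22 to 11.80 against 4.33 to 5.04. Hepatocyte markers were lower for 8 of 8 tested, at 4.17 to 4.20 in MEFs against 13.57 to 13.70, and markers of macrophages (3 of 3), endothelium (5 of 5) and red blood cells (2 of 2) were higher in livers. Of the listed markers, 8 of hepatocytes, 3 of macrophages, 2 of endothelium and 2 of red blood cells were detected on no MEF array. On no liver array, 3 fibroblast and 2 cycling markers were detected. Those of them that were tested passed the filter on detection through 1 sample type, so they had to differ and add nothing to these counts. The part of the marker differences in the members' differences was not tested. In such bulk RNA, fewer cells of a type and less RNA per cell cannot be told apart.

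**Figure D2:**
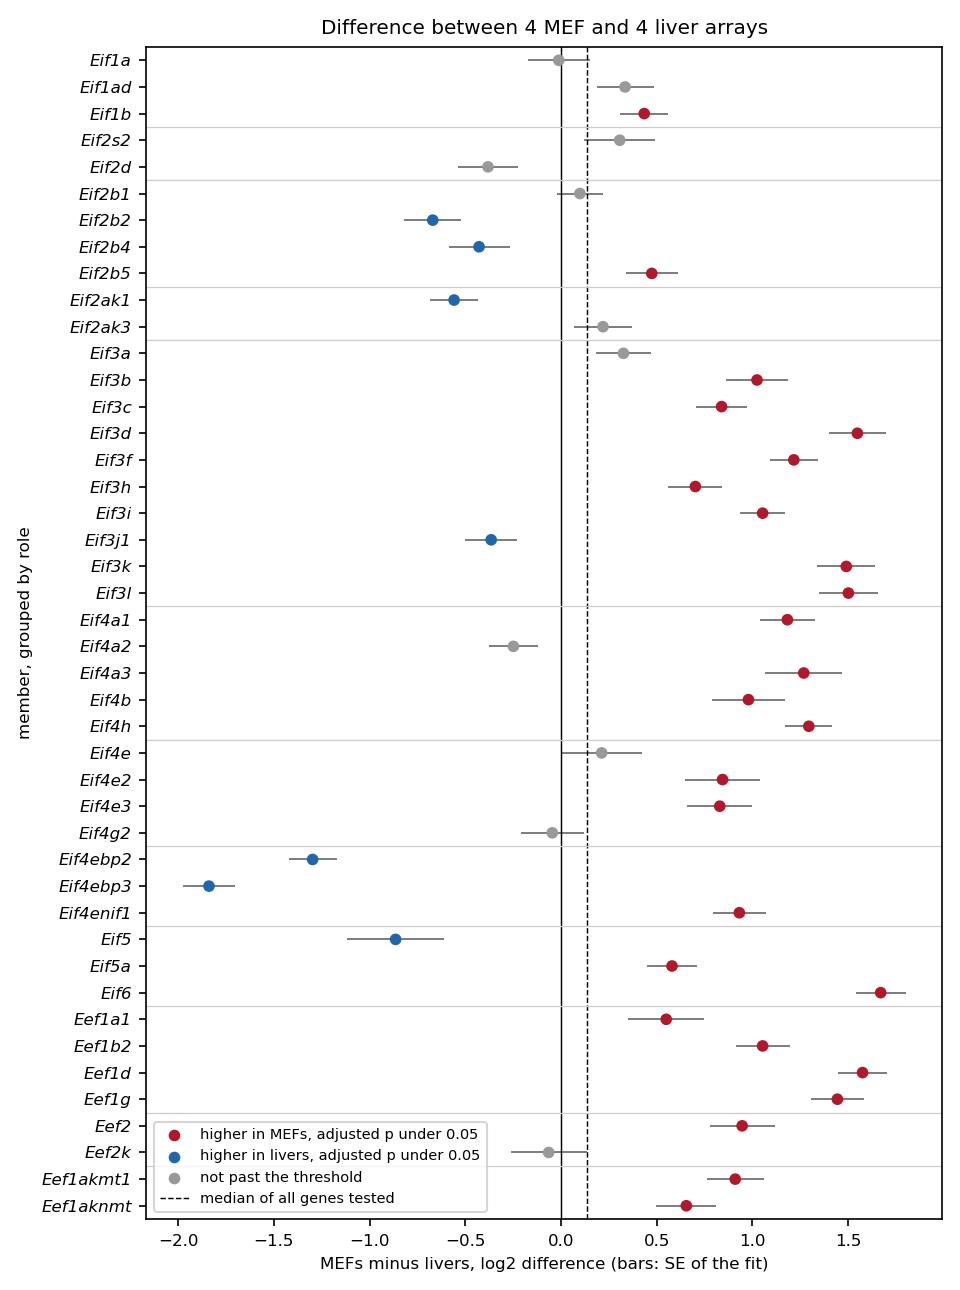
Difference between MEFs and livers for each of the 44 tested members (log2, x axis, with the SE of the fit), grouped by role, red where higher and blue where lower at an adjusted p under 0.05. Most eIF3, eIF4 and eEF1 members lie right of the dashed line, the median of all genes at 0.14; Eif4ebp3 (−1.84) and Eif4ebp2 (−1.30) lie farthest left. Under median scaling the blue points of Eif2b2, Eif2b4 and Eif2ak1 fall to the right of 0.

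Promoter sequences were available for 41 members, in 55 windows reaching from 250 bases before to 50 bases after a gene's start (RefSeq, GRCm38.p6). The letters CACGTG, the core of the E-box that MYC- and USF-type factors bind and a palindrome that reads the same on both strands, stood in a window of 12 of these members (29.3%), against 8.09% of 27025 genes and 11.3% of the 8496 tested genes of the array that had a window. The 6 stretches printed here come from members with an E-box before an annotated start: 4 of the 10 with the largest excess in MEFs, the elongation factor Eef2, and the more distal site of the cap-binding factor Eif4e. The E-box is in capitals and each line is read 5′ to 3′ on the strand of the gene.
Eif4a1, chr11:69672577-69672642, minus strand: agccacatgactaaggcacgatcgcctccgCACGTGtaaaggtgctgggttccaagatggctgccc
Eif4h, chr5:134639470-134639535, minus strand: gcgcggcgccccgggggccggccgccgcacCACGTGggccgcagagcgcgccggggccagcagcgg
Eif3f, chr7:108934317-108934382, plus strand: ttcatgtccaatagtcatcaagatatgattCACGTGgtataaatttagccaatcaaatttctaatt
Eif3k, chr7:28981897-28981962, minus strand: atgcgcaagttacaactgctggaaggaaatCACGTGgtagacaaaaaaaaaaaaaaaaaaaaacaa
Eef2, chr10:81176558-81176623, plus strand: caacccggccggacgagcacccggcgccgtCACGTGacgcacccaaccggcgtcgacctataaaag
Eif4e, chr3:138527018-138527075, plus strand: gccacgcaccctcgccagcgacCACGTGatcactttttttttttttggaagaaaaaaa
The E-box lay 189, 96, 68, 44, 43 and 228 bases before the annotated start of its window, in the order printed. For Eif4e that start lay inside the gene, which begins at base 138526191 of chr3.

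Of the 11 tested members with an E-box, 8 were called higher and 0 lower in MEFs by limma (Eif3a, Eif4e and Eef2k were not called and had no unadjusted p under 0.05). Of the 23 tested members with a window and no E-box, 11 were called higher and 6 lower. Among all tested genes of the array with an E-box, 42.9% were called higher and 26.5% lower. The ETS-type letters CCGGAAGT, searched on both strands and unable to overlap an E-box, stood in 9 members (22.0%, against 4.31% of genes and 8.22% of tested array genes). Of the 8 of these that were tested, 5 were called higher and 3 lower in MEFs. Of all tested array genes with these letters, 44.4% were called higher and 20.9% lower. The members called lower were Eif2b2, Eif2b4 and Eif2ak1, and the signs of all 3 turned under median scaling. Both motifs were chosen after the windows had been seen, and a match is a description of the letters only.

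Of eIF3, the largest initiation complex, 8 of 10 tested subunits were called higher in MEFs and 1 lower, with a median of 1.04. Eif3d, a subunit that can bind the cap, had log2 signals of 12.52, 12.48, 12.58 and 13.08 in MEFs and 11.10, 10.90, 11.16 and 11.30 in livers, given here and throughout in the order of wild type, Dnmt2-/-, Nsun2-/-, double knockout. This amounted to 1.55 (SE 0.15, adjusted p = 3.0e-05). Every MEF array lay above every liver array.

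The outer subunits Eif3l and Eif3k differed by as much. Eif3l stood at 12.44, 12.18, 12.50 and 12.87 in MEFs and at 11.02, 10.94, 11.02 and 11.00 in livers, a difference of 1.50 (SE 0.15, adjusted p = 4.5e-05). Eif3k stood at 10.29, 10.33, 10.55 and 10.35 against 8.85, 9.14, 8.91 and 8.66, a difference of 1.49 (SE 0.15, adjusted p = 4.3e-05). Eif3f, one of the pair of MPN-domain subunits, was 13.32, 13.20, 13.20 and 13.31 in MEFs and 12.03, 12.14, 12.08 and 11.92 in livers (1.22, SE 0.12, adjusted p = 4.4e-05). None of these 3 subunits had overlapping groups. Eif3b, Eif3c, Eif3h and Eif3i were also called higher, by 1.02, 0.84, 0.70 and 1.05. Eif3h, dim in livers, stayed called but came to 0.45 with an offset of 50 and 0.30 with no background correction. The large scaffold subunit Eif3a was at 0.33 without passing the threshold (adjusted p = 0.0746). It passed with no background correction, the authors' values, an offset of 50 and median scaling (0.27 to 1.10).

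The exception was Eif3j1, a loosely attached subunit. Its values were 5.27, 5.11, 5.22 and 4.68 in MEFs and 5.59, 5.59, 5.36 and 5.19 in livers, and the groups overlapped. The difference of −0.36 (SE 0.14) had an adjusted p of 0.0427, and the call was lost with no background correction (−0.12), with an offset of 50 (−0.20) and with the authors' values (−0.10). Under median scaling it lay at 0.

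In the group of eIF4A, eIF4B and eIF4H, 4 of 5 members were called higher in MEFs and 0 lower by limma. Eif4a2 was at an unadjusted p above 0.05, and the median was 1.18. The group counts Eif4a3, a related helicase that does not act at the cap. Eif4h, which stimulates the helicase, was 13.02, 12.83, 12.89 and 12.80 in MEFs and 11.57, 11.59, 11.55 and 11.64 in livers (1.29, SE 0.12, adjusted p = 2.8e-05). Eif4b, its counterpart, was 0.98 higher (adjusted p = 0.00194). Dim in livers, Eif4b stayed called but came to 0.68 with an offset of 50 and 0.49 with no background correction.

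The helicase itself has 2 cytosolic forms, and they did not move alike. Eif4a1 was 13.19, 12.88, 12.83 and 12.70 in MEFs against 11.64, 11.67, 11.75 and 11.81 in livers (1.18, SE 0.14, adjusted p = 0.000133). Eif4a2 was 11.03, 11.09, 11.10 and 11.20 in MEFs against 11.30, 11.55, 11.27 and 11.30 in livers. All 4 liver values of Eif4a2 lay above the MEF values, yet the difference of −0.25 missed the threshold (adjusted p = 0.115). It was called lower in MEFs with no background correction (−0.24, adjusted p = 0.0279), the authors' values (−0.23, 0.0323), an offset of 50 (−0.25, 0.0471) and its probes averaged (−0.57, 0.00619), and not under median scaling (−0.11, 0.508). Its second probe gave −0.88. The difference between the paralogues was not tested. Eif4a3, the helicase of the exon junction complex, was 11.12, 10.19, 10.45 and 10.38 in MEFs and 9.35, 9.28, 9.06 and 9.38 in livers (1.27, SE 0.20, adjusted p = 0.000616), with the wild-type MEF array highest.

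Among cap-binding proteins, Eif4e2, a homologue that represses translation, and Eif4e3 were called higher in MEFs, by 0.84 and 0.83. Eif4e, the main cap-binding factor, was 5.87, 5.62, 5.65 and 5.38 in MEFs and 5.78, 6.14, 4.90 and 4.85 in livers, the last not detected. Its sample types overlapped, at 0.21 (adjusted p = 0.399), and it was called higher under median scaling (0.69, adjusted p = 0.00601). Eif4g2, the relative of eIF4G that cannot bind eIF4E, differed by −0.05 (adjusted p = 0.82). The sign of Eif4g2 turned with the authors' values (0.01) and under median scaling (0.79, called higher). Eif4g1 and Eif4g3, the main scaffolds, were not analysed here.

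Eif4ebp2 and Eif4ebp3, inhibitors of eIF4E, ran the other way, and Eif4ebp1 was left out by the rule. Eif4ebp2 was 8.12, 8.34, 8.31 and 8.37 in MEFs against 9.64, 9.50, 9.60 and 9.59 in livers (−1.30, SE 0.13, adjusted p = 3.1e-05). Eif4ebp3 was detected on the 4 liver arrays, at 6.26, 6.45, 6.07 and 5.88, and on no MEF array, where the measured values were 4.38, 4.32, 4.32 and 4.28. Against the lowest detected signal, livers were at least 3.40-fold higher at the offset of 16; the measured difference was −1.84, but −0.99 with an offset of 50 and −0.64 with no background correction. Eif4ebp3 passed the filter on detection through the livers alone, so it had to differ, and its place among the 7 members called lower and the 7 that did not overlap adds nothing to those counts. Under median scaling Eif4ebp2 stayed called at −0.63, and Eif4ebp3 was at −1.57. Eif4enif1, which carries eIF4E into the nucleus, was instead 0.93 higher in MEFs (adjusted p = 0.000429).

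Of the 3 tested eIF1 and eIF1A members, 1 was called higher and 0 lower in MEFs by limma. Eif1b, a form of the scanning factor eIF1, was 0.43 higher in MEFs (adjusted p = 0.0145). Eif1a differed by −0.01 (adjusted p = 0.954), a sign that turned under median scaling (0.66, called higher) and with the authors' values (0.01). Its values were 9.41, 9.16, 9.25 and 8.91 in MEFs and 9.17, 9.00, 9.18 and 9.44 in livers, with overlapping ranges. The X-linked form Eif1ax was detected only on the liver array labelled Dnmt2-/- (5.47).

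Of eIF2 itself, the beta subunit Eif2s2 was 0.31 higher in MEFs without passing the threshold (adjusted p = 0.174), and its second probe gave −0.05. Under median scaling Eif2s2 was called higher (0.79, adjusted p = 0.00335). Eif2d, which can place transfer RNA on the ribosome without eIF2, was at −0.38 (adjusted p = 0.060). It was called lower with no background correction, the authors' values, an offset of 50 and its probes averaged (−0.34 to −0.26, adjusted p = 0.0302 to 0.0494), and called higher under median scaling (0.45, adjusted p = 0.028).

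Of the 4 eIF2B subunits, 1 was called higher in MEFs and 2 lower. Its catalytic epsilon subunit Eif2b5 was 0.47 higher in MEFs (adjusted p = 0.0139), a call lost with its probes averaged (0.25, adjusted p = 0.121), while the beta and delta subunits were lower. Eif2b2 stood at 7.63, 7.16, 7.02 and 7.01 in MEFs and at 7.92, 7.80, 7.90 and 7.85 in livers (−0.67, SE 0.15, adjusted p = 0.00425), with no overlap; under median scaling it was 0.17. Eif2b4 stood at 9.29, 9.21, 9.16 and 9.71 against 9.82, 9.65, 9.90 and 9.72 (−0.43, SE 0.16, adjusted p = 0.0419); it was 0.13 under median scaling, and the double knockout MEF array lay within the liver range. The alpha subunit Eif2b1 differed by 0.10 (adjusted p = 0.486), and its sign turned with its probes averaged. Under median scaling Eif2b1 was called higher (0.89, adjusted p = 0.000200).

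Of the eIF2 kinases, Eif2ak1 (HRI, the heme-regulated kinase) was 7.99, 8.17, 8.06 and 8.44 in MEFs and 8.61, 8.64, 8.82 and 8.82 in livers (−0.56, SE 0.13, adjusted p = 0.0047), but 0.23 with the opposite sign under median scaling. Eif2ak3 (PERK, the kinase of endoplasmic reticulum stress) differed by 0.22 (adjusted p = 0.224). It was called higher with the authors' values (0.20, adjusted p = 0.0460) and under median scaling (0.99, adjusted p = 0.000301).

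The late-acting factors held the largest difference among members called higher. Eif6, which keeps the large subunit from joining too early and takes part in its assembly, was 11.53, 11.52, 11.69 and 11.90 in MEFs and 9.96, 10.06, 9.89 and 10.04 in livers (1.67, SE 0.13, adjusted p = 8.7e-06). The gap between the groups was wider than either group's range. Eif5a, the hypusine-bearing factor that helps ribosomes past difficult sequences, was 10.89, 10.65, 10.76 and 10.92 against 10.29, 10.05, 10.28 and 10.27 (0.58, SE 0.13, adjusted p = 0.00436), and its paralogue Eif5a2 was not detected on any array.

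Eif5, which triggers GTP hydrolysis by eIF2, went the other way. It was 11.36, 11.31, 10.94 and 10.05 in MEFs and 11.69, 11.70, 11.85 and 11.88 in livers (−0.86, SE 0.25, adjusted p = 0.0159). All 3 Eif5 probes were lower in MEFs, at −0.86, −1.13 and −0.93. Without the double knockout MEF array, the lowest of the MEFs, the difference was −0.57 (adjusted p = 0.0185). Without the double knockout liver array it was −0.68 and no longer passed the threshold (adjusted p = 0.0523).

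All 4 tested eEF1 members were called higher in MEFs, with a median of 1.25, and the call of Eef1a1 was lost under 3 alternatives. The exchange factor subunit Eef1d was 12.53, 12.42, 12.47 and 12.69 in MEFs and 10.98, 10.98, 10.94 and 10.89 in livers (1.57, SE 0.13, adjusted p = 1.0e-05). Its partner Eef1g was 13.89, 13.56, 13.56 and 13.41 against 12.15, 12.08, 12.21 and 12.20 (1.44, SE 0.14, adjusted p = 2.7e-05), and Eef1b2 was 1.05 higher (adjusted p = 0.000225). None of the 3 exchange subunits overlapped between the sample types.

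Eef1a1, the carrier of aminoacylated transfer RNA, gave a weak signal for an abundant messenger RNA. Its one annotated probe read 5.15, 5.03, 5.35 and 5.28 in MEFs and 4.23, 5.10, 4.73 and 4.55 in livers, detected on 1 of 4 liver arrays. The difference of 0.55 (adjusted p = 0.0371) was not called with no background correction (0.16, adjusted p = 0.0961), with the authors' values (0.14, adjusted p = 0.118) or with an offset of 50 (0.26, adjusted p = 0.0643). The muscle and neuron form Eef1a2 was detected only in Nsun2-/- MEFs (4.71).

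Eef2, the translocation factor, was 0.95 higher in MEFs (adjusted p = 0.00127), with 10.46, 10.63, 10.85 and 10.07 against 9.62, 9.50, 9.64 and 9.46. Its kinase Eef2k, which inactivates it, differed by −0.06 (adjusted p = 0.79). The sign of Eef2k turned under median scaling (0.51, called higher) and with the authors' values (0.04). The eEF1A methyltransferases Eef1akmt1 and Eef1aknmt were higher in MEFs by 0.91 and 0.65, the second not called with its probes averaged (0.31, adjusted p = 0.0998).

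Several members were read by more than 1 probe, which allowed the same difference to be read again within an array. Of 20 members with more than 1 probe detected on at least 2 arrays, 15 had the same sign by every such probe. Signs differed for Eef1d, Eif2b1, Eif2b5, Eif2s2 and Eif4e2. Eif4e2 gave 0.84, 0.77 and −0.28.

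The probes of Eef1d diverged most. Beside the brightest probe (1.57), a second was detected on all 4 MEF arrays, at 7.25, 6.45, 7.20 and 7.26, and on no liver array, so that MEFs were at least 5.51-fold higher by that probe. The remaining detected probe was read on 2 liver arrays, wild type (5.22) and Nsun2-/- (5.50), and in no MEF. No source used here says which Eef1d transcripts each probe reads.

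**Figure D3:**
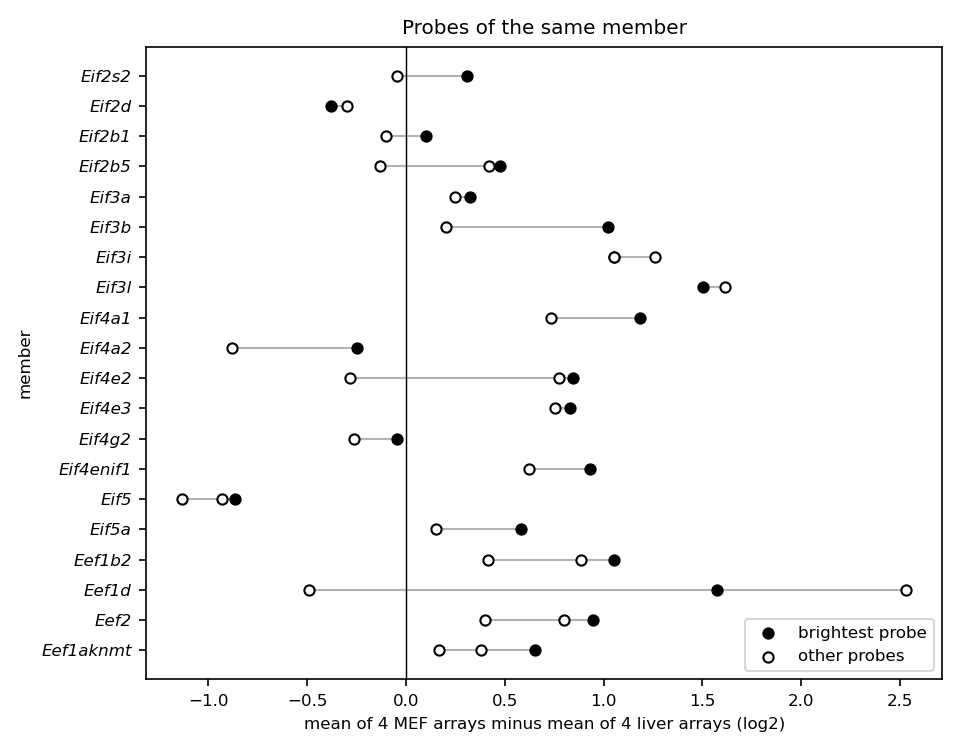
Difference between the mean of 4 MEF and the mean of 4 liver arrays (log2, x axis) for every probe detected on at least 2 arrays, for the 20 members with more than 1 such probe; filled points are the brightest probe. For 15 members all points lie on one side of 0, and the Eef1d probes run from −0.49 to 2.53. The ends of that range are probes detected in livers alone (−0.49) and in MEFs alone (2.53), which had to differ.

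Other genes of translation and its control were read from lists that are not members. Over all genes tested, 38.7% were called higher in MEFs and 28.6% lower, with a median of 0.14 (0.51 under median scaling). Whether any list departed from these shares was not tested. The shares belong to quantile normalization, and none is given beside the list counts under median scaling. Of 8 tested genes for termination and recycling, 3 were called higher in MEFs and 3 lower. The release factor GTPase Gspt2 was detected on the 4 MEF arrays and on no liver array. It was at least 8.59-fold higher in MEFs at the offset of 16. The measured difference of 3.16 was 2.08 with an offset of 50 and 1.50 with no background correction. Gspt2 passed the filter on detection through the MEFs alone, so it had to differ and adds nothing to the 3 called higher. Etf1, which recognizes stop codons, was 0.69 higher, while Mcts1 (−0.83) and Abce1 (−0.60), which act in recycling, were lower; under median scaling Abce1 was at 0.19 and 5 genes were called higher and 0 lower by limma. Among poly(A) and cap partners 5 of 8 were higher and 1 lower, led by the poly(A)-binding protein Pabpc1 (1.62), with the eIF4A inhibitor Pdcd4 at −0.96.

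In the mTORC1 list, the kinase complex that phosphorylates the 4E-binding proteins, 6 of 14 were higher and 3 lower. Its inhibitors Ddit4 (3.12) and Deptor (−3.60) were the extremes, in opposite directions, and Mtor itself was −0.56, or 0.27 under median scaling, where 10 were called higher and 1 lower. Of 6 genes around eIF2 phosphorylation 2 were higher and 1 lower: Impact, which restrains GCN2, was 2.05 higher, the phosphatase subunit Ppp1r15a 0.96 higher, and the kinase-inhibiting chaperone Dnajc3 −2.83 (4 higher and 1 lower under median scaling). Of 5 genes of factor modification 3 were higher and 1 lower, led by the spermidine synthase Srm (1.70), whose product feeds hypusine formation (4 and 0 by limma under median scaling).

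Mitochondrial and selenoprotein factors lay on the liver side, unlike most cytosolic members. Of 10 tested mitochondrial factors, 0 were called higher in MEFs by limma and 7 lower, and all 10 had negative values, with a median of −0.71. Gfm2 and Gfm1 led with −2.10 and −1.78. Of 5 selenoprotein factors, 0 were called higher by limma and 4 lower (median −0.94), led by Sephs2 (−4.45), which makes the selenium donor. Under median scaling the mitochondrial list had 2 higher and 4 lower (median −0.22) and the selenoprotein list 1 and 3 (median −0.49). With no background correction the medians were −0.45 and −0.35. Among the 7 mitochondrial factors called lower, Mtif2 (−0.53) was detected on no MEF array. It passed the filter on detection through the livers alone and adds nothing to that count. Its limma call was lost with no background correction (−0.16, adjusted p = 0.0937) and with an offset of 50 (−0.23, adjusted p = 0.0727). The difference between these lists and the members was not tested.

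Loss of Dnmt2 and of Nsun2 was then fitted over both sample types to ask whether the factors respond to the missing transfer RNA methylation. Limma called 0 of 44 members for Dnmt2 loss and 0 for Nsun2 loss, and 0% of all genes tested in either direction. At an unadjusted p under 0.05 there were 4 members for Dnmt2 loss (3.99% of all genes) and 2 for Nsun2 loss (4.21%). The lowest adjusted p of a member was 0.977 for Dnmt2 and 0.965 for Nsun2. The 95% interval stayed within 2-fold in either direction for all 44 members for Dnmt2 loss and for 43 for Nsun2 loss, Eif4e being the exception. The fit holds 1 array per group, so these intervals cover only the departure of arrays from the layout.

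With Dnmt2 loss the median member differed by −0.05 on the log2 scale and 30 of 44 members were lower, against 51.9% of all genes. With Nsun2 loss the median was −0.03 and 27 were lower, against 50.6%. The members at the ends of these ranges are described in turn, none of them past the threshold.

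Eif4e3, the cap-binding homologue, had the largest positive value for both losses, 0.47 (SE 0.17, adjusted p = 0.977) for Dnmt2 and 0.31 (SE 0.17, adjusted p = 0.965) for Nsun2. Its signals were 7.03, 7.73, 7.80 and 7.83 in MEFs and 6.53, 6.83, 6.44 and 7.28 in livers. All 3 MEF knockouts lay 0.71 to 0.81 above wild type by the brightest probe, and 0.72, 0.47 and 0.63 above it by the second. In livers only the double knockout array stood apart by both probes, at 0.75 and 0.69.

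Eif1ad, a protein with an eIF1A-like domain, was at the low end for both losses, with −0.43 (SE 0.15, adjusted p = 0.977) for Dnmt2 and −0.51 (SE 0.15, adjusted p = 0.965) for Nsun2. It read 6.60, 6.15, 5.80 and 5.53 in MEFs and 5.99, 5.69, 5.89 and 5.18 in livers. The wild-type array was highest and the double knockout lowest in both sample types.

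Eif2s2 had the lowest value for Dnmt2 loss, −0.47 (SE 0.18, adjusted p = 0.977). It was 10.61, 9.83, 9.94 and 9.36 in MEFs, every knockout below wild type, and 9.63, 9.58, 9.89 and 9.41 in livers, where the Nsun2-/- array was highest. Eif2ak3 followed with −0.45 (SE 0.15, adjusted p = 0.977). Its values were 6.58, 6.19, 6.78 and 6.08 in MEFs and 6.46, 6.27, 6.27 and 5.77 in livers, with the double knockout lowest in each. At the other end for Dnmt2 loss, Eif3c was at 0.22 and Eif2ak1 at 0.15 (adjusted p = 0.977 for both). Eif3c read 8.67, 8.81, 8.66 and 9.07 in MEFs and 7.94, 8.14, 7.83 and 7.95 in livers.

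Eif4e had the lowest value for Nsun2 loss, −0.66 (SE 0.21, adjusted p = 0.965). Its liver values given above were 4.90 and 4.85 on the arrays labelled without Nsun2, against 5.78 and 6.14 on those labelled with it. The 6.14 came from the array labelled Dnmt2-/-, whose Nsun2 probe was not detected. Within livers the Nsun2 value was −1.09 (SE 0.19, adjusted p = 0.655) and within MEFs −0.23 (SE 0.19, adjusted p = 1.00), and the difference between them was −0.86 (SE 0.27, adjusted p = 0.917). Eif5 was next after Eif1ad, with −0.33 (SE 0.25, adjusted p = 0.965). Eif3d (0.28) and Eif3b (0.25) were at the upper end beside Eif4e3 (adjusted p = 0.965 for both). Eif3b read 8.94, 8.48, 9.13 and 9.23 in MEFs and 8.03, 7.77, 8.13 and 7.74 in livers.

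**Figure D4:**
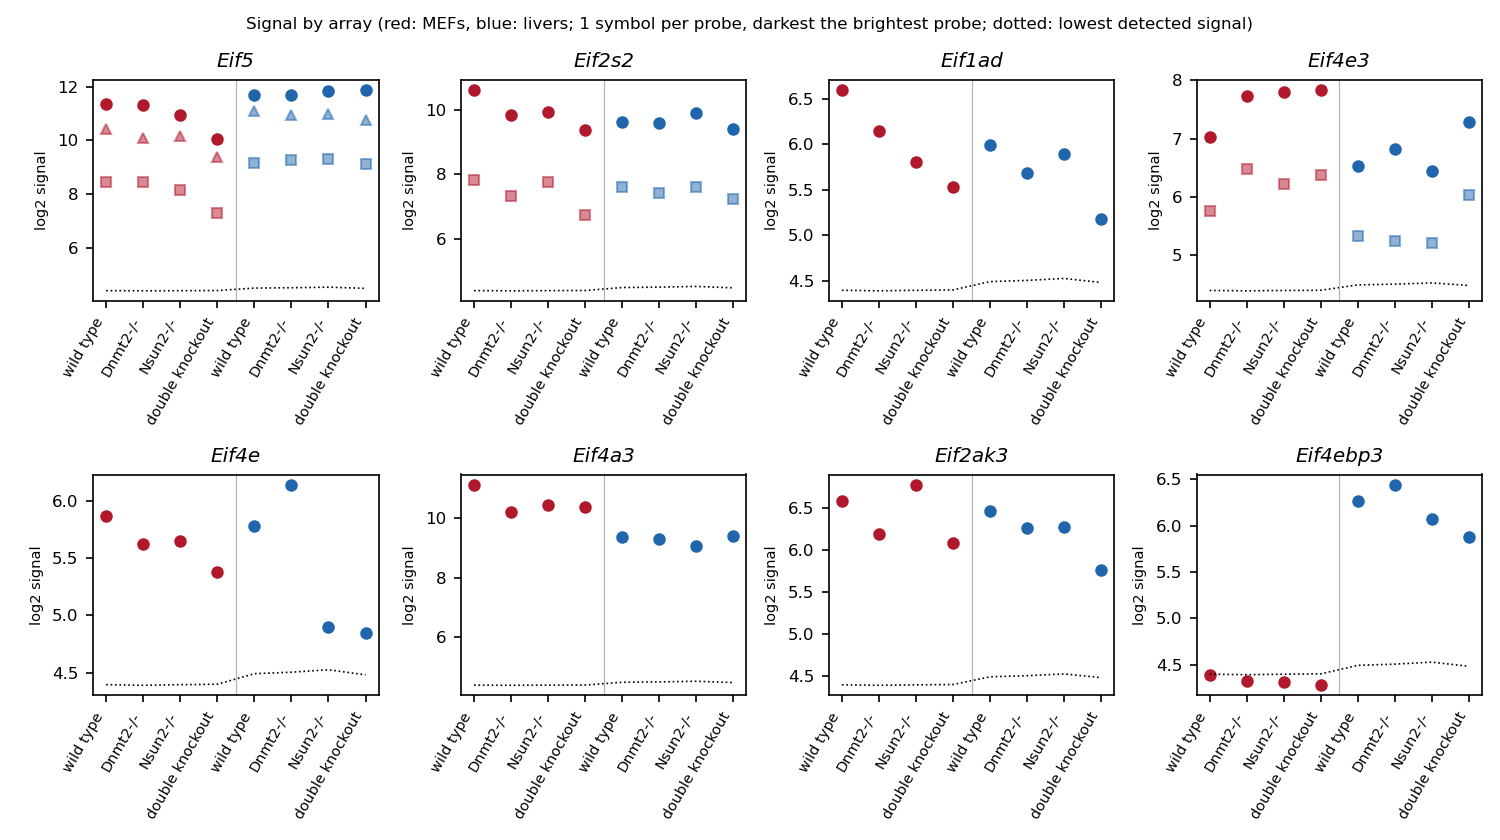
Log2 signal on the 8 arrays (x axis, red for MEFs and blue for livers) of 8 members named for a genotype difference or for the contrast of sample types, with 1 symbol per probe and the lowest detected signal dotted. The 3 Eif5 probes and the 2 Eif2s2 probes are lowest on the double knockout MEF array among MEFs, and Eif4ebp3 lies above the dotted line in the 4 livers and not in MEFs.

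Fits that let the losses interact, or that estimated each loss within a sample type, called 0 members by limma (0% of all genes in each). At an unadjusted p under 0.05 the interaction had 2 members, Eif4b (−0.81) and Eif4g2 (−0.63), and 3.85% of all genes. Within MEFs there were 2 for Dnmt2 loss, Eif2s2 and Eif2ak3 (6.45% of all genes), and 3 for Nsun2 loss, Eif1ad, Eif2s2 and Eif5 (4.91%). Within livers there were 2 for Dnmt2 loss, Eif1ad and Eef2k (4.37%), and 1 for Nsun2 loss, Eif4e (6.31%). The difference between livers and MEFs had 1 member for Dnmt2 loss, Eef2k (5.51%), and 2 for Nsun2 loss, Eif4e and Eif5 (5.23%). The values for either loss in livers, and the fits over both sample types, rest in part on the liver array labelled Dnmt2-/-. That array was fitted as having Nsun2, although its Nsun2 probe was not detected.

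Each knockout array was last set against wild type within its sample type, without a test. At least 2-fold differences were found for 0 of 44 members in Dnmt2-/- MEFs (2.73% of all genes higher, 0.893% lower) and 0 of 44 in Nsun2-/- MEFs (1.94% and 0.682%). In the double knockout MEFs 3 of 43 members were at least 2-fold lower and 0 higher, against 2.82% lower and 4% higher of all genes. In livers the count was 0 of 45 on the array labelled Dnmt2-/- (1.1% of all genes higher, 1.26% lower), 0 of 43 for Nsun2-/- (1.41% and 1.49%) and 0 of 43 for the double knockout (1.6% and 1.51%).

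**Figure D5:**
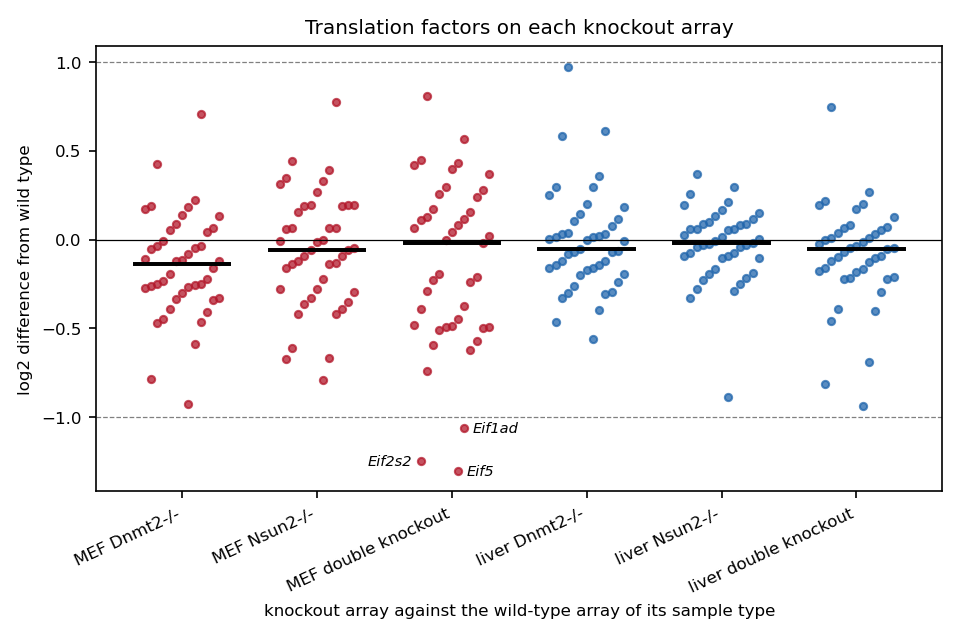
Log2 difference of each knockout array from wild type within MEFs or livers, for the 43 to 45 members detected on either array (points; bars are medians; dashed lines mark 2-fold). Eif5 (−1.30), Eif2s2 (−1.25) and Eif1ad (−1.06) in double knockout MEFs lie beyond the lower dashed line, Eif1ad only with background correction at an offset of 16.

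The 3 members beyond 2-fold were Eif5, Eif2s2 and Eif1ad. Eif5 in these MEFs stood apart from wild type by −1.30, −1.13 and −1.04 by its 3 probes, and its livers differed by −0.35 to 0.19 by the same probes. Eif2s2 differed by −1.25 and −1.08 by its probes. Eif5 and Eif2s2 stayed beyond 2-fold under each alternative processing, whereas Eif1ad (−1.06) had a single probe and came to −0.50 with no background correction, −0.51 with the authors' values and −0.71 with an offset of 50. The double knockout MEF array also had the lowest fibroblast marker median, 10.22 against 11.40 to 11.80 in the other MEFs, and the part of this in the 3 values was not tested.

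The median member differed from wild type by −0.14 in Dnmt2-/- MEFs, where 32 of 44 members were lower (72.7%, against 53.9% of all genes). It differed by −0.06 in Nsun2-/- MEFs and by −0.02 in double knockout MEFs. In livers the medians were −0.05 on the array labelled Dnmt2-/- (0.04 under median scaling), −0.02 for Nsun2-/- (0.01 with probes averaged) and −0.05 for the double knockout. Wide differences short of 2-fold were those of Eif4a3 in Dnmt2-/- MEFs (−0.93), Eif4e in the double knockout liver (−0.94, there not detected) and Eif1ax on the liver array labelled Dnmt2-/- (at least 1.96-fold higher, not detected in wild type).

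The 3 MEF comparisons share the wild-type MEF array, and their values are given side by side for that reason. In 20 of 44 members (45.5%, against 28% of all genes) all 3 MEF knockouts lay below wild type (20 or 21 under the other scalings), and in 6 (13.6%, against 20.6%) all lay above (3 to 6). In livers, which share their own wild-type array, the counts were 10 below (22.7%, against 23.7%) and 6 above (13.6%, against 25.1%).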

How the data were processed

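Total RNA of 8 mouse samples, 1 per group, was hybridized to Illumina bead arrays. Per the file headers, the deposited non-normalized table gives a probe intensity and a detection p-value for each array, and a second deposited table gives the authors' processed intensity, with a normalization that no source used here states. Intensities were corrected with limma 3.58.1 (R 4.3.3; normexp with background from the detection p-values, offset 16), taken to log2 and quantile-normalized over the 8 arrays. Gene symbols came from the platform annotation (23898 of 25608 probes had 1), and a gene was read by its brightest probe. A probe was detected at a detection p under 0.01, and 10491 genes detected on at least 2 arrays were tested.

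Tests used limma with Benjamini-Hochberg adjustment over all genes tested, two-sided, at 0.05: sample type, Dnmt2 loss and Nsun2 loss together (4 residual degrees of freedom), with their interaction (3), or nested in sample type (2). Differences between 2 arrays had no test. Where a probe was undetected on 1 of them, it was given the lowest detected signal unless its own was higher. The functions were tested on simulated data. Precision is limited by the number of arrays.

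The members, gene lists and tests were chosen with earlier results of these data known. Values on every array were given for members called or at least 2-fold apart by genotype, the 10 members with the largest called difference between MEFs and livers in each direction, the 3 at either end of each genotype effect, and paralogue pairs. Other members with array values, printed sequences and the motifs were chosen after their values were seen. Alternatives were no background correction, an offset of 50, median scaling, the authors' values, the mean of a gene's probes, no filter on dim probes, an intensity trend in the prior, and leaving out each array.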

Additional observations from a re-analysis of the deposited data

How the results depend on the processing

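The count of members called between MEFs and livers was 33, and 31 to 39 under the alternatives that kept all arrays, with 29 of the 33 called with the same sign under median scaling. Without each array in turn it was 30 to 32. Counts for the genotype effects were 0 throughout the alternatives run. The members called whose sign turned did so under median scaling: Eif2b2 (0.17), Eif2ak1 (0.23) and Eif2b4 (0.13). Eif2b4 and Eif3j1 lay close to the threshold and lost their call without most single arrays, and Eif5 lost it without the double knockout liver array (−0.68) and moved to −0.57 without the double knockout MEF array. Eif2b5 and Eef1aknmt lost their call with probes averaged, and Eef1a1 with no background correction, an offset of 50 or the authors' values. The 3 members beyond 2-fold in double knockout MEFs were 2 with no background correction, the authors' values or an offset of 50. An alternative added after seeing the data, genes detected on all 8 arrays, gave 32 calls among 41 members. No separate paired analysis was run. Each group had 1 array, and MEFs and livers held the same genotypes, which entered the fit as the terms for Dnmt2 and Nsun2 loss. Leaving out an array was not possible in comparisons of 2 arrays. For members near background, differences shrank as the offset grew or the correction was left out, and their size is limited by signal over background. Such members included Eef1a1, Eif4e, Eif4ebp3, Eif3j1, Eif3h and Eif4b.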
